A study of Homo sapiens with 12 samples.

Results

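Tetraspanins are a family of small membrane proteins that cross the membrane several times and carry a small and a large outer loop. They bind integrins, immunoglobulin-type adhesion proteins and membrane proteases side by side in the membrane, gather them into shared platforms, and sort cargo into endosomes and released vesicles. In carcinoma cells they are known mainly for their links to adhesion, movement and spread, with CD82 described as a suppressor of metastasis and CD151 as a partner of laminin-binding integrins. The family was taken here as every row of the count table whose symbol is TSPAN followed by a number, or is CD9, CD37, CD53, CD63, CD81, CD82, CD151, UPK1A, UPK1B or PRPH2. This gave 32 genes of the 60234 in the table. Of these, 24 passed the low-count filter and were tested, 5 had a few reads and were not tested, and 3 had no read in any library.

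The cells are MDA-MB-231, an established human breast cancer line classed as triple-negative, with no further genetic change named in the labels. The fast population was captured by the path its cells migrated along, and the parental population is the uncaptured line it was compared with. Both were grown in culture, and 12 RNA libraries were made, with 2 batches and, per batch, 3 libraries of fast and 3 of parental cells. The labels give no passage number, no time since capture and no clonal status, and the libraries are described as technical replicates, so that p-values measure only the spread between these libraries.

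Library totals ran from 53267145 to 75944907 counts. Of the line's markers, the intermediate filament gene VIM and the receptor genes EGFR and CD44 were abundant, at means of at least 534 CPM in each population (CPM is the count scaled to library size, after TMM normalisation between libraries). Of the genes of the receptors by which the triple-negative class is defined, the estrogen receptor gene ESR1 stood at 0.139 CPM in both populations. ERBB2 was detected at 59.0 CPM (fast) and 62.4 CPM (parental), and RNA levels alone do not assign that class. The progesterone receptor gene PGR rose from 0.477 ± 0.168 to 2.05 ± 0.487 CPM with no overlap (log2 2.12 ± 0.16 SE). The epithelial cadherin CDH1 had 8 counts in fast and 3 in parental cells over 6 libraries each. Among counts of 1 to 20, even numbers made up 63.4% to 70.5% of entries in a library. Whether the mates of a read pair were counted separately was not stated in the labels, so intervals drawn from low counts may be too narrow.

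Of the 24 tested tetraspanins, 8 were called higher and 10 lower in fast cells, and 6 were not called, at an edgeR adjusted p under 0.05. Over all 22668 genes tested, 63.4% were called, 31.9% as higher and 31.5% as lower, so calls among the members were read against a background in which most genes moved. This background holds genes of every level that passed the filter. All tested members but TSPAN7, TSPAN10, TSPAN19 and PRPH2 had a mean of at least 1 CPM. The share called was larger when only genes at or above that mean were tested. Percentages given beside members and lists were not matched for level, so they cannot show an excess of calls or of populations without overlap. At least 1.5-fold changes were called for 6 members and at least 2-fold changes for 5, beside 23.1% and 10.9% of all genes. The median log2 fold change of the tested members was -0.05, beside 0.01 over all genes tested, and the median size was 0.31, beside 0.32. The summed level of the tested members was 1352 ± 24.3 CPM (SD, n = 6 libraries) in fast and 1347 ± 29.9 CPM in parental cells. On the CPM scale, which is not corrected for gene length, the family total was therefore close in both populations while its members moved in both directions. Of the tested members, 15 had populations that did not overlap in any library, beside 38.4% of all genes.

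**Figure D1:**
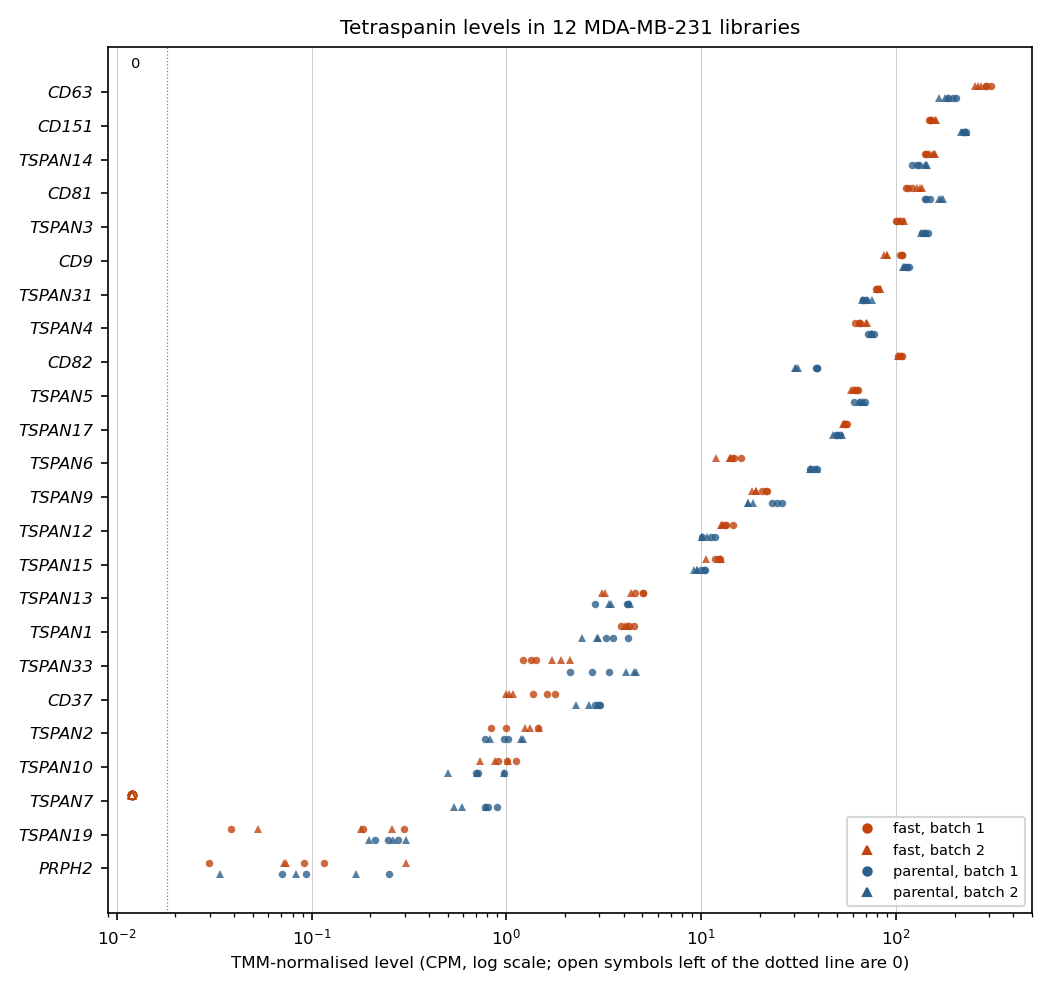
Level of each tested tetraspanin (vertical axis, ordered by mean) in each of the 12 libraries, in TMM-normalised CPM on a log axis, with color for the population and shape for the batch. The fast libraries of CD82 lie at 103 to 108 CPM, above all parental libraries, those of TSPAN6 lie below, and TSPAN7 is at 0 in the fast libraries (open symbols).

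The members that changed most in each direction among those with a single listed start in the RefSeq promoter table were CD82, which rose, and TSPAN33, which fell. The table matched 24 of the 32 members by symbol. The 250 bases before their transcription starts are shown because these genes moved in opposite directions, with capitals marking the GC box GGGCGG and the CCAAT box CCAAT on either strand (RefSeq, GRCh38.p14; both on the plus strand; CD82 at chr11:44565413-44565662 and TSPAN33 at chr7:129144457-129144706).
CD82: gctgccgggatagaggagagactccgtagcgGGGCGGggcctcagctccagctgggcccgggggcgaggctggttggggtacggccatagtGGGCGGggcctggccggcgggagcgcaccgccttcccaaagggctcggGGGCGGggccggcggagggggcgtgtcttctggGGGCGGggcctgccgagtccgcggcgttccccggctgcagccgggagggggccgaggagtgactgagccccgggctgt
TSPAN33: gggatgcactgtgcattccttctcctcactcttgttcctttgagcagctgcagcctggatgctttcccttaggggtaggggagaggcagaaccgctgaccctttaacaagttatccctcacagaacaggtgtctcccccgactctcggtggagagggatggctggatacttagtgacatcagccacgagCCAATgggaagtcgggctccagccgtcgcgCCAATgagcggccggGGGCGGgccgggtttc

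The CD82 window held 4 GC boxes and 0 CCAAT boxes, and the TSPAN33 window held 1 GC box and 2 CCAAT boxes. The TATA box motif TATAAA was in neither. Of 34943 promoter windows of the same length, 42.5% held a GC box, 32.0% a CCAAT box and 10.8% TATAAA on either strand. The windows had 26 and 12 CpG pairs, beside a median of 11 over all windows. These matches describe the letters only.

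The CD-numbered tetraspanins CD9, CD63, CD81, CD82 and CD151, the best-studied members, were all detected at high level. All were called, 2 higher and 3 lower, beside 31.9% and 31.5% of all genes. CD82, also known as KAI1, ranged from 103 to 108 CPM in the fast libraries, with a median of 105 CPM. In the parental libraries it ranged from 30.3 to 39.6 CPM, with a median of 35.1 CPM. Every fast library was above every parental library, and the fold change was 3.02 (log2 fold change 1.59 ± 0.04 SE, adjusted p = 1.09e-20). This was the largest rise among the tetraspanins tested. An antisense gene, AC010768.1, overlaps exons of CD82 on the opposite strand and moved alongside it, from 5.36 ± 0.5 to 15.7 ± 1.02 CPM. Whether the counting used strand was not stated in the labels, so reads of the pair cannot be told apart.

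CD63, a protein of late endosomes, lysosomes and released vesicles that binds the protease inhibitor TIMP1, had the highest CPM of the family in fast cells and was second to CD151 in parental cells. Its fast libraries lay between 255 and 307 CPM, with a median of 281 CPM, and its parental libraries between 166 and 203 CPM, with a median of 186 CPM. The populations did not overlap, and the rise was 1.5-fold (log2 0.59 ± 0.03 SE, adjusted p = 1.27e-18).

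CD151, which binds laminin-binding integrins, fell from 225 ± 6.11 to 154 ± 5.63 CPM. The fast libraries ran from 147 through a median of 153 to 162 CPM and the parental ones from 215 through 227 to 230 CPM, with no overlap (log2 -0.55 ± 0.03 SE). POLR2L, which overlaps CD151 on the opposite strand, was also lower (log2 -0.40, adjusted p = 4.52e-15). CD81, an entry factor for hepatitis C virus, had fast libraries at 113 to 136 CPM with a median of 125 CPM, and parental libraries at 141 to 174 CPM with a median of 159 CPM. All fast values were below all parental ones (log2 -0.34 ± 0.03 SE).

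CD9, a partner of integrins and of membrane-bound growth factors, ran from 86.5 to 107 CPM in fast cells, with a median of 97.5 CPM, and from 109 to 117 CPM in parental cells, with a median of 112 CPM. The populations came close without overlapping, and the fall was small (log2 -0.21 ± 0.03 SE, adjusted p = 3.28e-07). TSPAN2, a relative of CD9 known from myelinating cells, was near 1 CPM in both populations (fast 1.22 ± 0.256, parental 1.0 ± 0.181 CPM) and was not called (adjusted p = 0.14).

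Levels of different genes were compared per length, as CPM per kilobase of the union of annotated exons in GENCODE 29, a scale that understates genes with long unspliced exons in the annotation, such as TSPAN14. On this scale CD63 ranked first in both populations, at 106 in fast and 70.6 CPM per kilobase in parental cells, and CD151 second, at 39.1 and 57.1. CD82 ranked 10 of 24 in parental cells, at 8.63 CPM per kilobase, and 3 in fast cells, at 25.9. Within a library, the per-length level of CD82 was 0.319 ± 0.0347 (SD, n = 6) of that of CD9 in parental cells and 1.11 ± 0.101 of it in fast cells. In fast cells this ratio ran from 0.99 to 1.24, so the order of CD82 and CD9 there was not constant between libraries. The per-length ratio of CD63 to CD81 was 3.34 ± 0.489 in parental and 6.36 ± 0.832 in fast cells, and the ranges did not overlap.

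The TspanC8 members are the tetraspanins that bind the membrane protease ADAM10 and guide its traffic and its choice of substrates. All 6 were tested, with 3 called higher and 2 lower, beside 31.9% and 31.5% of all genes. The one that changed most was TSPAN33, known from red cell precursors and activated B cells. It ranged from 1.22 through a median of 1.57 to 2.11 CPM in the fast libraries and from 2.13 through 3.74 to 4.65 CPM in the parental ones. The highest fast value lay just under the lowest parental value, and the fall was 2.2-fold (log2 -1.14 ± 0.11 SE, adjusted p = 9.52e-11).

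The other TspanC8 members changed by less than 1.5-fold. TSPAN14 rose from 135 ± 9.57 to 150 ± 8.18 CPM, with overlapping populations (log2 0.16 ± 0.03 SE). TSPAN15 rose from 9.86 ± 0.507 to 12.0 ± 0.757 CPM, with no overlap (log2 0.29 ± 0.06 SE). TSPAN17 rose from 50.4 ± 1.74 to 54.8 ± 0.938 CPM (log2 0.12 ± 0.03 SE), and this call was lost when the 3 libraries per population and batch were summed to 1 (adjusted p = 0.0715).

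TSPAN5, a near relative of TSPAN17, was lower, at 61.6 ± 1.76 against 65.9 ± 2.93 CPM (log2 -0.10 ± 0.03 SE, adjusted p = 0.0088). Its call was lost on the summed libraries (adjusted p = 0.218). It was also lost when parental replicate 1 was left out in batch 1 (0.052) or in batch 2 (0.0567). TSPAN10, linked to pigment cells, was not called at a fast level of 0.942 ± 0.135 CPM and a parental level of 0.763 ± 0.184 CPM (adjusted p = 0.144), except without parental batch 2 replicate 1 (0.0482). It overlaps NPLOC4, a gene at over 207 CPM on the opposite strand, so its few reads are uncertain. ADAM10 itself rose from 86.1 to 96.5 CPM (log2 0.17 ± 0.03 SE).

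The X-linked pair TSPAN6 and TSPAN7 fell. TSPAN6 ran from 11.9 through a median of 14.3 to 16.0 CPM in the fast libraries and from 36.2 through 37.4 to 39.5 CPM in the parental ones. The populations were far apart, with a 2.66-fold fall (log2 -1.41 ± 0.05 SE, adjusted p = 2.25e-23).

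TSPAN7, linked to X-linked intellectual disability and best known from neurons, is singled out here after its values were seen. It had 0 counts in all 6 fast libraries and 46, 58 and 50 counts in parental batch 1 and 32, 43 and 56 in parental batch 2. Against a floor of 3 counts over the 6 fast libraries, and with the parental counts taken as exact, its level was at least 96.8-fold lower in fast cells. This bound covers counting error in the fast libraries only, and would be smaller if the mates of a read pair were counted separately. TSPAN7 passed the low-count filter through its parental libraries alone. A same-strand gene whose exons overlap it, AF241726.2, fell from 1.31 ± 0.14 to 0.674 ± 0.107 CPM and so kept reads in fast cells.

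Among the leukocyte tetraspanins CD37, CD53 and TSPAN32, CD37 was the one tested. CD37, a B cell protein, ranged from 0.998 through a median of 1.23 to 1.77 CPM in fast and from 2.28 through 2.88 to 3.04 CPM in parental libraries, a 2.14-fold fall with no overlap (log2 -1.10 ± 0.12 SE). TEAD2, a transcription factor gene whose exons overlap CD37 on the opposite strand, fell from 14.2 ± 1.38 to 7.43 ± 1.23 CPM (log2 -0.95), and its part in the CD37 counts was not tested. CD53 had 8 counts in fast and 12 in parental cells. TSPAN32 had no read.

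Of 15 leukocyte markers, 4 passed the filter, with 2 called higher and 1 lower, beside 31.9% and 31.5% of all genes. CD3D and CD2 of T cells and MS4A1 of B cells had no read in any library. PTPRC, which encodes the pan-leukocyte protein CD45, had 7 counts in fast and 5 in parental cells. The summed marker level was 202 to 214 CPM in fast and 59.5 to 70.1 CPM in parental libraries. Nearly all of it was LAPTM5, a lysosomal membrane protein, at 200.4 and 60.1 CPM. At levels closer to that of CD37, CORO1A was called higher, from 2.90 ± 0.41 to 3.82 ± 0.572 CPM (log2 0.40 ± 0.10 SE). CSF1R, a receptor of the macrophage lineage, fell from 1.38 ± 0.301 to 0.772 ± 0.185 CPM (log2 -0.83 ± 0.18 SE). ITGAM, a myeloid integrin chain, had 1 count in fast and 35 in parental cells. The markers thus moved in both directions, and their part in the CD37 result was not tested.

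A further 7 TSPAN genes, linked to carcinoma cells, vessels or migrating cells, included 4 that were tested. Of these, 2 were called higher and 1 lower, each by less than 1.5-fold, beside 31.9% and 31.5% of all genes called higher and lower. TSPAN4, known as a builder of migrasomes, the vesicles left on the retraction fibers of moving cells, fell from 74.8 ± 1.97 to 66.4 ± 3.63 CPM, with no overlap (log2 -0.17 ± 0.03 SE, adjusted p = 1.4e-05). TSPAN12, a co-factor of the Frizzled receptor FZD4 in vessel growth, rose from 10.7 ± 0.718 to 13.3 ± 0.687 CPM, with no overlap (log2 0.31 ± 0.05 SE). FZD4 was called in the other direction, from 22.0 to 18.6 CPM (log2 -0.25 ± 0.05 SE).

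TSPAN1, often abundant in carcinomas, was called higher, from 3.22 ± 0.613 to 4.17 ± 0.217 CPM (log2 0.39 ± 0.10 SE, adjusted p = 0.000747), with overlapping populations. TSPAN9, known from platelets, was not called (20.04 ± 1.45 and 21.1 ± 3.85 CPM, adjusted p = 0.301). TSPAN8, a carcinoma antigen, had 27 counts in fast and 20 in parental cells and was not tested. TSPAN11 and TSPAN18 had no read, and for each gene with no read the floor of 3 counts allows a level of up to 0.00757 CPM over the 6 fast libraries. The level allowed would be higher if mates were counted separately.

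Of the remaining TSPAN genes, TSPAN3 fell from 140.1 ± 4.21 to 105 ± 3.45 CPM with no overlap (log2 -0.42 ± 0.03 SE). TSPAN31, first described as a gene amplified in sarcomas, rose from 70.0 ± 3.12 to 81.0 ± 1.64 CPM (log2 0.21 ± 0.03 SE). Its exons overlap those of the cell cycle kinase gene CDK4 on the opposite strand, which rose by 0.22 on the log2 scale, from 154 to 179 CPM, and the reads of the pair cannot be told apart.

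TSPAN13 (4.22 ± 0.869 and 3.73 ± 0.588 CPM in fast and parental cells) and TSPAN19 (0.168 ± 0.105 and 0.25 ± 0.0409 CPM) were not called, with adjusted p-values of 0.211 and 0.229. Without parental batch 2 replicate 1, TSPAN13 was called higher (adjusted p = 0.0496). TSPAN16 had 0 counts in fast and 2 in parental cells. The uroplakins UPK1A and UPK1B, of the bladder lining, had 6 and 1 counts in fast and 0 in parental cells. The photoreceptor disc protein PRPH2 stood at 0.115 ± 0.0978 and 0.116 ± 0.0784 CPM and was not called (adjusted p = 0.963). Of their tissue markers, UPK3A and KRT20 of the bladder lining and GNAT1 of photoreceptors had at most 10 counts in either population. Of the 4 bladder markers 2 were tested and 1 was called, as higher. Of the 5 photoreceptor markers 2 were tested and 1 was called, as lower. Over all genes tested, 31.9% were called higher and 31.5% lower. Their summed levels ran from 1.69 to 2.43 CPM in fast and 1.87 to 2.59 CPM in parental libraries for the bladder list, and from 0.193 to 0.416 and 0.14 to 0.616 CPM for the photoreceptor list.

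ROM1, the photoreceptor partner of PRPH2, is a tetraspanin that the symbol rule does not take in. It was slightly lower in fast cells, at 2.71 against 3.21 CPM (log2 -0.24, adjusted p = 0.0301). The call was lost with no low-count filter (0.0579) and on the summed libraries (0.167). Leaving out 1 of 5 libraries also ended it (0.0593 to 0.0755), namely replicates 1 and 3 of fast batch 1, replicate 3 of fast batch 2, replicate 2 of parental batch 1 and replicate 1 of parental batch 2.

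**Figure D2:**
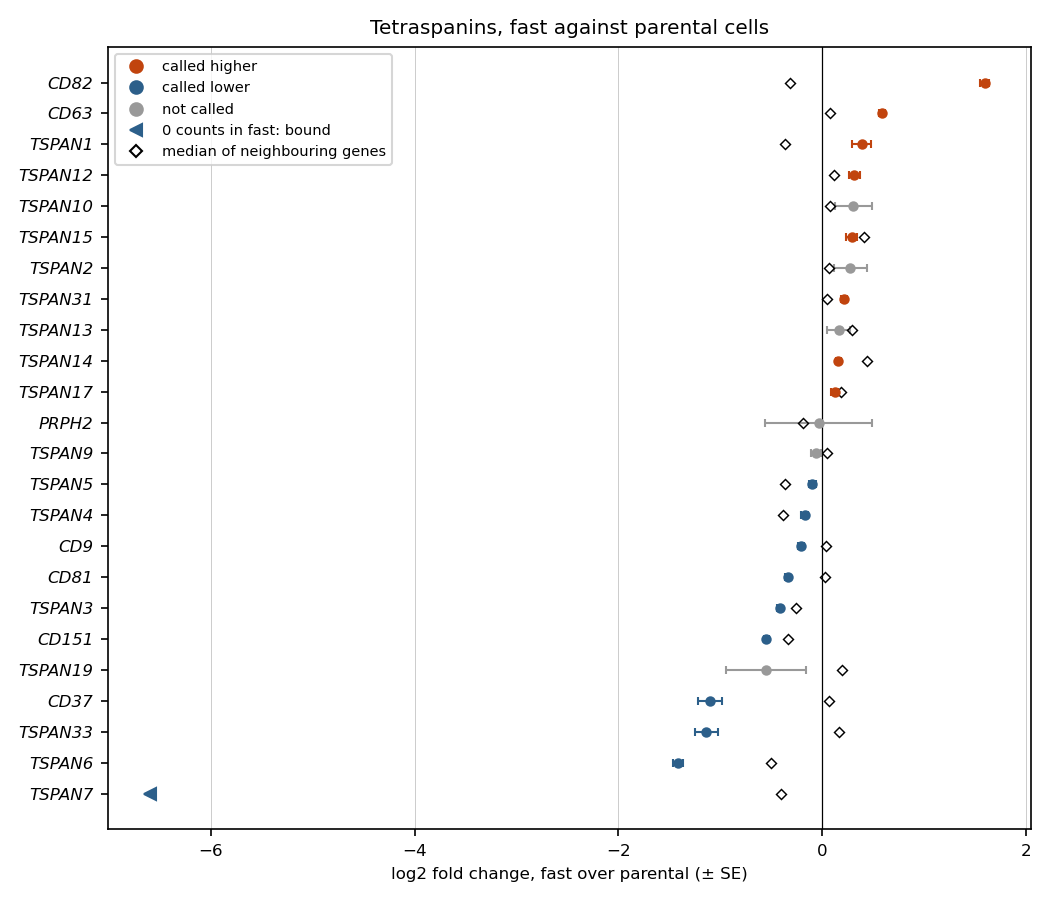
Log2 fold change of fast over parental cells with its standard error for the 24 tested tetraspanins (6 libraries per population), colored by call, with the median of up to 20 neighbouring genes as an open diamond. CD82 stands at 1.59 beside a neighbour median of -0.32. The arrow for TSPAN7 marks the bound of 96.8-fold lower, taken against a floor of 3 counts with the parental counts as exact.

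The changes of the members were set beside those of the genes around them. For each tested member, the median log2 fold change of the 10 nearest genes on each side with a mean of at least 1 CPM was taken, in the gene order of GENCODE 29. Only the member itself was left out, so genes that overlap it and other tetraspanins could be among its neighbours. Members near each other on a chromosome can share neighbours and are then not separate cases. CD82 on chromosome 11 rose while 19 of its 20 neighbours had a negative log2 fold change (median -0.32). TSPAN1 on chromosome 1 likewise rose among neighbours of which 19 of 20 were negative (median -0.36). CD37 and TSPAN33 fell beside neighbour medians of 0.07 and 0.16, and CD9 and CD81 fell beside medians of 0.03 each.

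The other called members had the sign of their neighbour median. For CD63, TSPAN12, TSPAN17 and TSPAN31, which rose, the medians were 0.08, 0.11, 0.19 and 0.05. TSPAN5 had a log2 fold change of -0.10 beside -0.37. TSPAN14 and TSPAN15, both on chromosome 10, had log2 fold changes of 0.16 and 0.29 beside neighbour medians of 0.44 and 0.41. CD151 and TSPAN4 on chromosome 11 had -0.55 and -0.17 beside -0.33 and -0.39, and TSPAN3 on chromosome 15 had -0.42 beside -0.26. TSPAN6 and TSPAN7 on the X had neighbour medians of -0.51 and -0.40, smaller than their own falls. What part of a member's change goes with its position was not tested.

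Effects were then compared within each batch. In batch 1 and in batch 2, 18 of the 24 tested members were called, 8 higher and 10 lower in each, beside 56.1% and 56.0% of all genes. With the same sign, 16 members were called in both batches, beside 46.0% of all genes. The members called in 1 batch and not in the other were TSPAN1, TSPAN5, TSPAN9 and TSPAN13. TSPAN1 was called in batch 2 (log2 0.58, adjusted p = 0.000151) and not in batch 1 (0.20, 0.187), except without parental batch 1 replicate 2 (0.0489). TSPAN5 was called in batch 2 (log2 -0.15, adjusted p = 0.00209) and not in batch 1 (-0.05, 0.351). TSPAN13 was called higher in batch 1 (log2 0.38, adjusted p = 0.0187) and not in batch 2 (-0.06, 0.751). The batch 1 call of TSPAN13 was lost when replicate 1 of the fast cells (0.0533) or replicate 2 of the parental cells (0.191) of that batch was left out. TSPAN9 was called lower in batch 1 (log2 -0.20, adjusted p = 0.00287) and not in batch 2 (0.09, 0.227). The difference between batches was called for TSPAN9 (adjusted p = 0.0298) and not for TSPAN1, TSPAN5 and TSPAN13 (0.258, 0.395 and 0.227).

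The batches differed in the size of the effect for 3 members, CD82, CD9 and TSPAN9, beside 5.4% of all genes for which this difference was called. For CD82 the fast level was 106 ± 2.51 CPM (SD, n = 3) in batch 1 and 104 ± 1.58 CPM in batch 2, and the parental level 39.2 ± 0.422 and 30.8 ± 0.594 CPM. The fast levels of the batches overlapped, while the parental level was lower in batch 2. For CD9 the parental level was 115 ± 2.22 and 110 ± 1.2 CPM in batches 1 and 2 and the fast level 106 ± 1.51 and 89.1 ± 2.25 CPM, so that the fast level was the one further apart between batches. TSPAN9 was lower in fast cells in batch 1, at 21.3 ± 0.685 against 24.5 ± 1.37 CPM, and in batch 2 stood at 18.8 ± 0.431 against 17.7 ± 0.644 CPM. The CD9 difference was lost with no low-count filter, without any 1 of the 3 fast batch 2 libraries or without parental batch 2 replicate 3 (adjusted p 0.0687 to 0.224). The TSPAN9 difference was lost with a block for the replicate number (0.0508). Leaving out any of 5 libraries also ended it (0.0551 to 0.0973), which were replicates 2 and 3 of fast cells and 3 of parental cells in batch 1, and replicates 1 and 2 of parental cells in batch 2.

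**Figure D3:**
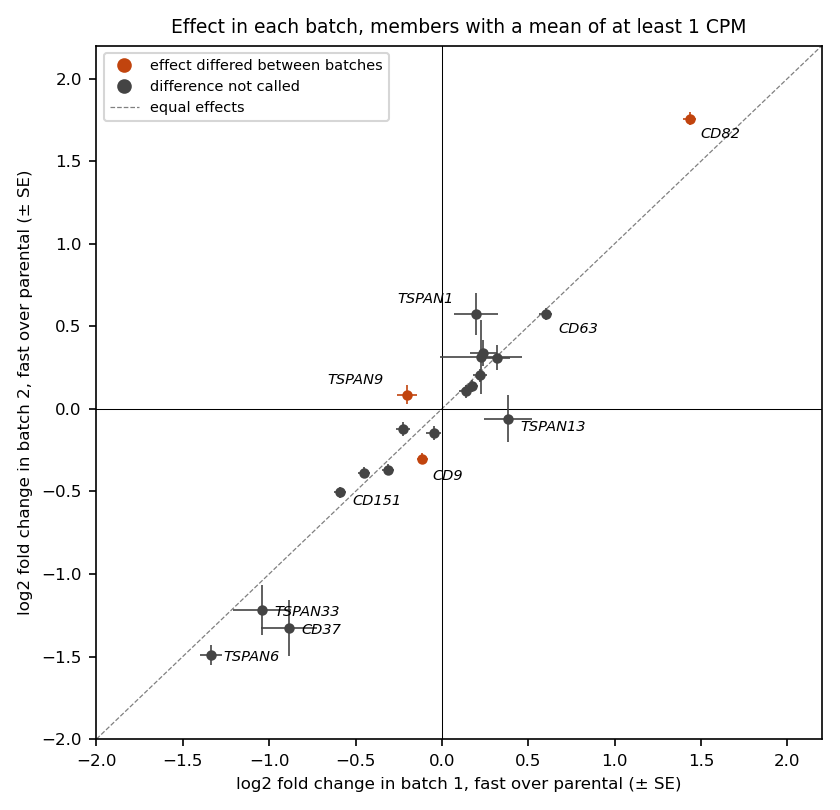
Log2 fold change of fast over parental cells in batch 1 (horizontal axis) and batch 2 (vertical axis) with standard errors, for members with a mean of at least 1 CPM, with the dashed line at equal effects. CD82 lies above the line (1.43 and 1.76), CD9 below it (-0.11 and -0.30), and TSPAN9 has opposite signs (-0.20 and 0.09).

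The partners of tetraspanins were examined from 3 lists covering adhesion partners, sheddases with their ligands and signalling partners, and the machinery of multivesicular bodies and released vesicles. Of 19 tested adhesion partners, 9 were higher and 8 lower (median log2 fold change 0.01, as over all genes tested), beside 31.9% called higher and 31.5% called lower over all genes. The immunoglobulin-type proteins PTGFRN and IGSF8, which bind CD9 and CD81 directly, were both lower. PTGFRN fell from 9.17 ± 1.5 to 1.32 ± 0.244 CPM (log2 -2.79 ± 0.08 SE), and IGSF8 from 19.7 to 11.8 CPM (-0.74 ± 0.05 SE).

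Integrin chains went both ways. ITGB4, a laminin receptor chain, rose from 55.6 ± 15.3 to 182 ± 27.1 CPM (log2 1.74 ± 0.07 SE), and ITGA2, of a receptor for collagen, went from 102 ± 29.4 to 225 ± 73.4 CPM (called higher, 1.12 ± 0.03 SE). ITGA3 and ITGA6, which pair with CD151, rose by less (0.26 ± 0.03 and 0.29 ± 0.03 SE), while CD151 fell. The shared beta chain ITGB1 was lower, at 1125 against 1282 CPM (log2 -0.19 ± 0.02 SE). L1CAM, an adhesion protein cut by ADAM10, rose from 37.5 ± 7.4 to 86.0 ± 10.01 CPM (log2 1.21 ± 0.04 SE).

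Of 18 tested sheddases, ligands and signalling partners, 11 were higher and 5 lower (median 0.12), beside the same 31.9% and 31.5% of all genes. The growth factor precursor TGFA fell from 23.1 ± 3.81 to 5.49 ± 1.37 CPM (log2 -2.08 ± 0.08 SE). HBEGF, whose membrane-bound form associates with CD9, rose from 130.1 ± 18.7 to 199 ± 13.9 CPM (log2 0.62 ± 0.03 SE). The lipid kinase PI4K2A rose from 47.9 ± 0.842 to 74.5 ± 2.55 CPM (log2 0.64 ± 0.03 SE) and the receptor MET from 120.4 ± 5.46 to 174 ± 14.3 CPM (0.53 ± 0.03 SE). TIMP1, the ligand of CD63, was lower, at 119 against 141 CPM (log2 -0.24 ± 0.03 SE), while CD63 was higher.

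All 24 genes of the vesicle list were tested, with 14 higher and 7 lower (median 0.15), again beside 31.9% and 31.5% of all genes. The largest change of this list was a fall. SMPD3, a neutral sphingomyelinase linked to vesicle budding, went from 4.28 ± 0.487 to 1.36 ± 0.48 CPM with no overlap (log2 -1.65 ± 0.17 SE). RAB27A, a small GTPase of vesicle release, rose from 18.2 ± 1.79 to 29.8 ± 1.51 CPM (log2 0.71 ± 0.05 SE), while its relative RAB27B was lower (-0.29 ± 0.05 SE). SDCBP, the adaptor syntenin that links syndecans and CD63 to vesicle budding, rose from 125 ± 4.59 to 185 ± 13.6 CPM (0.56 ± 0.03 SE), and the syndecan SDC4 rose from 149 ± 8.6 to 239 ± 13.4 CPM (0.69 ± 0.04 SE). The late endosome GTPase RAB7A rose from 176 ± 4.76 to 267 ± 10.8 CPM (0.60 ± 0.03 SE). PDCD6IP, the syntenin-binding protein ALIX, fell from 234 to 172 CPM (log2 -0.44 ± 0.02 SE).

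The L6 proteins resemble tetraspanins in their number of membrane spans and belong to a separate family. Of 6 genes, 3 were tested, and TM4SF19 rose from 2.66 ± 0.938 to 9.85 ± 1.86 CPM (log2 1.92 ± 0.09 SE) and TM4SF1 from 141 ± 19.6 to 192 ± 19.5 CPM (0.45 ± 0.03 SE). TM4SF18, named because it was the only one that fell, had 21 counts in fast and 73 in parental cells (adjusted p = 0.0126).

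**Figure D4:**
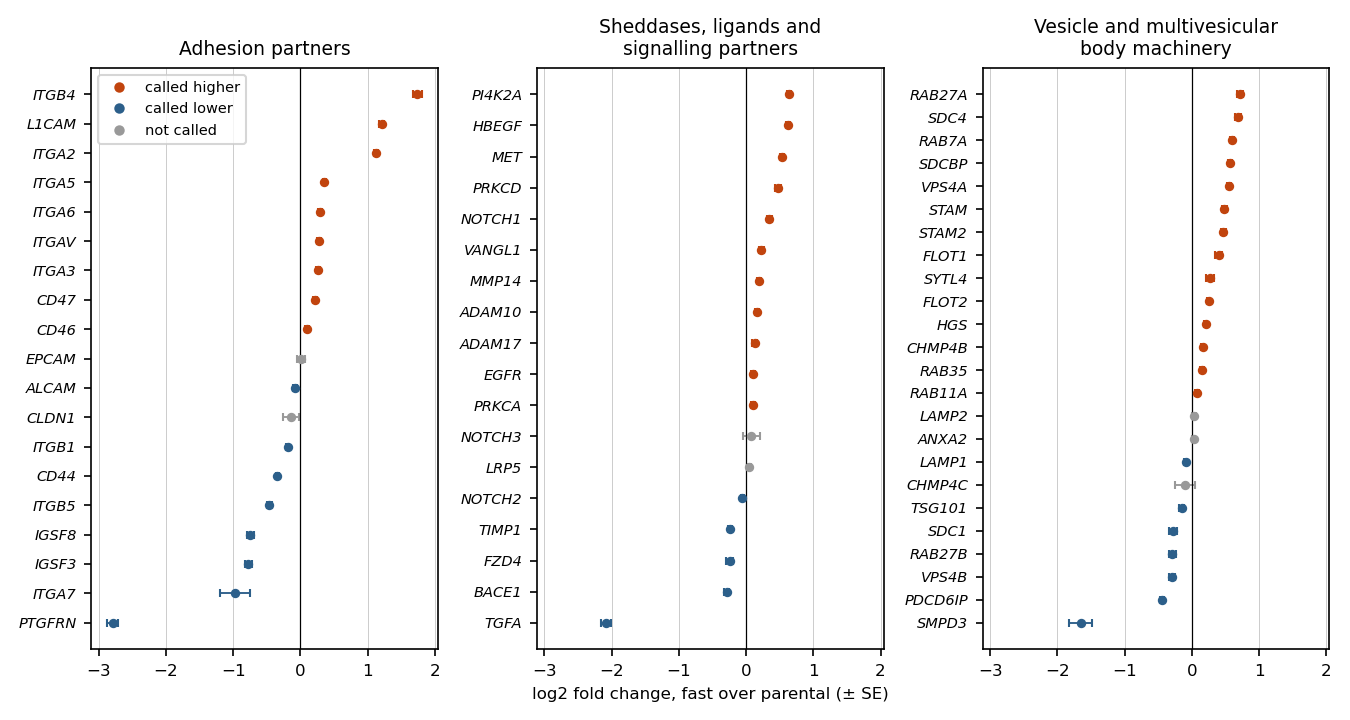
Log2 fold change of fast over parental cells with standard errors for every tested gene of the 3 partner lists (6 libraries per population), colored by call. PTGFRN and TGFA lie furthest to the left at -2.79 and -2.08, ITGB4 furthest to the right at 1.74, and most vesicle genes lie within 1 log2 unit of 0.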

How the data were processed

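Total RNA of fast and parental MDA-MB-231 cells was sequenced in 12 libraries. The deposited table holds raw read counts per Ensembl gene; per the submitters' processing notes the tools were Trimmomatic 0.32, STAR 2.3.0e and featureCounts 1.4.4 with the builds hg19 and GRCh37, and how strand, mates and multiply mapped reads were counted is not stated there. Counts were tested as deposited with edgeR 4.0.16 in R 4.3.3: TMM normalisation, a low-count filter (minimum count 10, minimum total 15, by population and batch), a robust quasi-likelihood fit with population and batch, and Benjamini-Hochberg adjustment over all 22668 genes tested, called at an adjusted p under 0.05. Effects within each batch and their difference came from a fit with an interaction. The fits were tested on simulated data. Alternatives were DESeq2 1.42.0, limma 3.58.1 (voom), other scaling, other filters, no batch term, a replicate block, summed libraries and leaving out each library.

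The tetraspanins and partner lists were chosen with earlier results of these data known. Every tested member is named. Library values are given for called members of at least 1.5-fold and a mean of at least 1 CPM, and for the 5 CD-numbered genes. Of each partner list the 4 largest called changes at a mean of at least 5 CPM are named. IGSF8, ITGA3, ITGA6, ITGB1, ADAM10, TIMP1, FZD4, RAB27B, PDCD6IP, TM4SF18 and SMPD3 were added after their values were seen. So were the markers PGR, ERBB2, CSF1R and CORO1A, and, for their difference between batches, SDC1, FLOT1, BACE1 and VANGL1. Chromosome, gene order and exon length came from GENCODE 29 by gene ID, whose build differs from that of the counts, so no gene coordinates are given.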

Additional observations from a re-analysis of the deposited data

Results flagged for a closer look

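The change from parental to fast cells differed between the batches, by the test of that difference, for 3 tetraspanins. The log2 fold change in batch 2 minus that in batch 1 was 0.32 ± 0.05 (SE) for CD82 (adjusted p = 6.38e-05), 0.29 ± 0.08 for TSPAN9 (0.0298) and -0.19 ± 0.05 for CD9 (0.0103). The CD82 difference was called in all 19 other settings, with values of 0.31 to 0.39.

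The same test called 4 of 19 tested adhesion partners, 3 of 18 sheddases, ligands and signalling partners and 3 of 24 vesicle genes, beside 5.4% of all genes. Of the genes called, 6 are among the partners named above. The difference was positive for the laminin receptor chains ITGB4 (0.36), ITGA6 (0.24) and ITGA3 (0.18) and for L1CAM (0.21), so that these rose by more in batch 2. It was negative for the syndecan SDC4 (-0.27) and the growth factor precursor HBEGF (-0.20), which rose by less in batch 2. Every one of these 6 was called higher in each batch. The other genes called were SDC1 (0.36), FLOT1 (0.27), BACE1 (0.23) and VANGL1 (0.20). FLOT1 and VANGL1 were called higher in each batch, and SDC1 and BACE1 lower in each batch. The HBEGF difference was lost with no low-count filter (adjusted p = 0.0918) and without replicate 1, 2 or 3 of fast batch 2 (0.0593 to 0.12). The L1CAM difference was lost when replicate 1 or 3 of fast batch 1, replicate 1 of parental batch 1 or replicate 2 of parental batch 2 was left out (0.0602 to 0.118). Groups of 3 libraries were not examined for single libraries that stand apart.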

How the results depend on the processing

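Of the 24 tested tetraspanins, 19 kept direction and call in every other setting that tested them and 23 kept direction. There were 21 such settings, or 20 for TSPAN7, TSPAN10, TSPAN19 and PRPH2, which the filter at a mean of 1 CPM leaves out. The count of called members was 16 to 18 over 9 other settings and 17 to 19 with 1 library left out, and 16 on summed libraries. For the partner lists and the L6 genes the count of called genes was 57, with 47 to 57 and 55 to 57. No such count moved by over 1.5 times. PRPH2, at a level near 0.1 CPM, had log2 fold changes from -0.65 to 0.38 with 1 library left out. TSPAN13 in batch 2 ran from -0.198 to 0.0701 and the TSPAN5 log2 fold change in batch 1 from -0.0851 to 0.00478; none of these 3 values was called and the cause was not tested. In batch 2, TSPAN4 was not called with no low-count filter or without fast replicate 1 or 2 or parental replicate 1 or 3 (adjusted p 0.0529 to 0.227). CD9 in batch 1 was not called without parental replicate 3 (0.0506). TSPAN17 was not called in batch 1 with no low-count filter (0.0653) or in batch 2 without parental replicate 3 (0.0775). FZD4 and RAB27B were not called without the batch term (0.0846 and 0.36).

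The sample titles share replicate numbers between populations, while the column names of batch 1 number the libraries otherwise. Libraries with the same title number correlated at -0.12 to 0.10 in their deviations from group means, and the others at -0.20 to 0.20. With means of 3 libraries these values cannot decide whether the numbers pair them. With the replicate block 18 members were called, as without it, and 2 rather than 3 differences between batches. Members under 1 CPM rest on few reads.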
